A study of Drosophila melanogaster with 33 samples.

Results

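The accessible chromatin of 10 glial marker genes (repo, moody, alrm, Eaat1, Gs2, Gat, Mdr65, wrapper, nrv2 and drpr) was followed across the 33 ATAC-seq libraries of the series. The genes were chosen by name. Every called peak that overlapped a gene body, or the 1000 bp before its first annotated start, was assigned to that gene. Of 18277 annotated genes, 11153 had a called peak in at least 1 library, and 9 of the 10 glial markers were among them. Their peaks merged into 25 of the 36210 accessible regions of the series.

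All flies carried Clk-GAL4 and UAS-GFP-NLS, which places GFP in the nuclei of cells in which the Clk driver is active. Brains were dissociated and sorted by FACS. Cells with GFP are called clock neurons here, and cells without it, which include other neurons and glia, non-clock cells. Wild type flies in light-dark cycles (LD) gave 4 libraries of clock neurons at ZT0 (dawn), 4 at ZT12 (dusk) and 4 of non-clock cells. Wild type flies in constant darkness (DD) gave 3 libraries at CT24, 3 at CT36 and 3 of non-clock cells. The per01 flies, hemizygous males (per01/Y) that lack a functional period gene, were studied in DD and gave 4 libraries at CT24, 4 at CT36 and 4 of non-clock cells. The methods give brains of both sexes for the ATAC-seq experiments, while the per01/Y label names males, and if per01 flies alone were all male, genotype and sex cannot be told apart. The labels give no collection time for non-clock cells. Clock neurons were identified only by the driver, and each library pools many brains.

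Glia supply neurons with metabolites, clear transmitters from synapses, insulate axons and remove debris, and in the fly they also form the blood-brain barrier. Nearly all of them outside the midline are specified by Glial cells missing (Gcm) and then express the homeodomain factor Reversed polarity (Repo). ATAC-seq reads out where a transposase can enter the chromatin, so the start and the enhancers of a gene used in a cell type are commonly open there. In a bulk sort, fewer cells of a type and less open chromatin per cell cannot be told apart.

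The measure used below is the number of tags (transposase ends, extended) at the highest called summit of a region, scaled for library depth, and named scaled tags. Per the methods, fewer clock neurons than non-clock cells were sorted per sample, and the part of cell input in the tag totals was not tested. After removal of PCR duplicates, clock neuron libraries held 4.18 to 17.0 M tags and non-clock libraries 16.7 to 36.2 M. The lowest called peak of a library therefore lay higher in clock neurons, at 19.2 to 33.02 scaled tags, than in non-clock cells, at 14.4 to 20.5. A library without a call was given that lowest value, so differences that rest on uncalled libraries are set partly by this calling limit. A missing call means that no peak was detectable at that depth. A region without any clock neuron call in a comparison could enter its test only through the non-clock cells.

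Glial marker genes were called more often in non-clock cells than in clock neurons. A clock neuron library had a call at 3 to 6 of the 10 genes, with a median of 4. A non-clock library had a call at 6 to 9, with a median of 8. Over the whole genome, clock neuron libraries held 16504 to 25335 called peaks and non-clock libraries 20930 to 25793. The share of all genes called per library was not computed. Of the 25 regions, 11 (44.0%) were called in non-clock cells alone, none in clock neurons alone, 3 by a single library and 3 by all 33. Over the whole series 15.8% of regions were called in non-clock cells alone, and the part of the higher tag totals of those cells in both shares was not tested. An annotated start site was covered by 9 of the 25 regions, and 9 summits lay upstream of a first start, 15 in introns and 1 in an exon. The heat map of scaled tags shows these calls library by library.

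**Figure D1:**
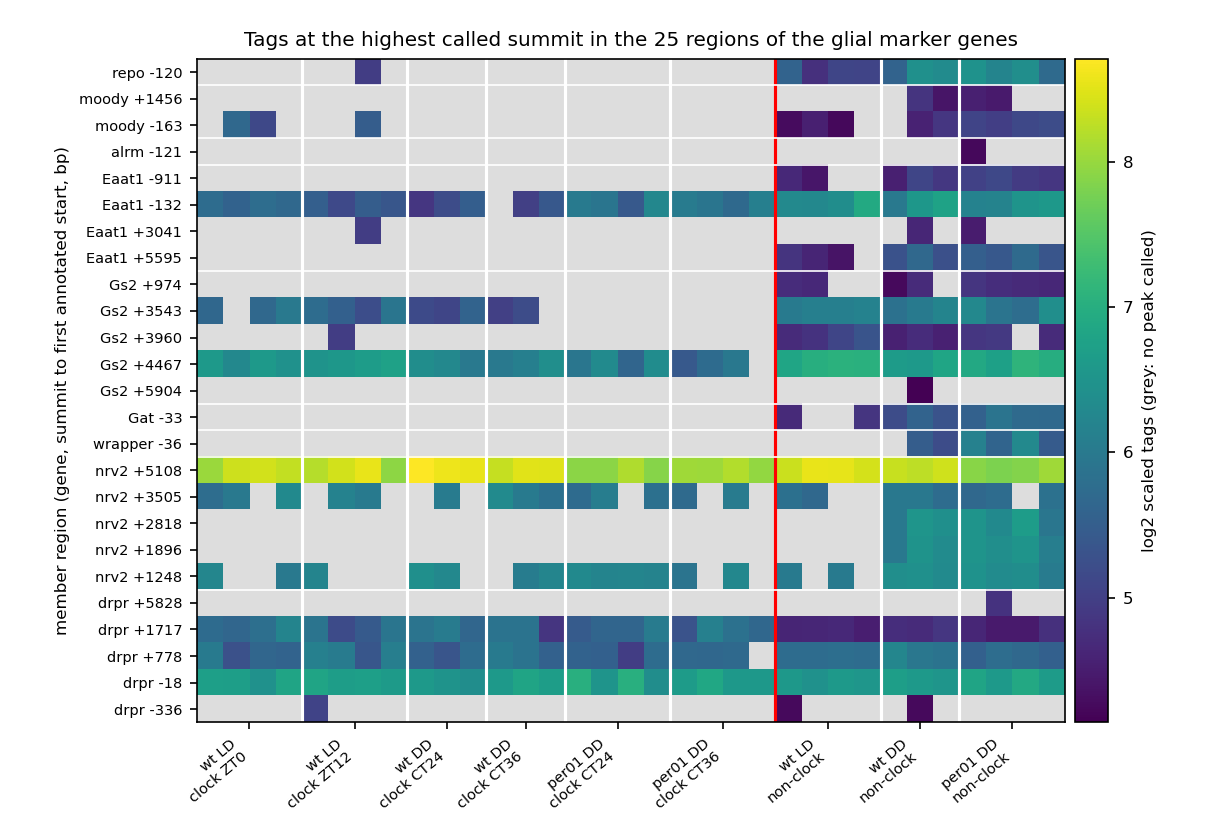
Scaled tags at the highest called summit (log2 colour scale, grey where no peak was called) for the 25 regions of the glial marker genes (rows, named by gene and by the distance in bp from the first annotated start to the summit) in the 33 libraries (columns, grouped, with the 11 non-clock libraries right of the red line). The start of repo, the Gat start, the wrapper start and the nrv2 regions at +1896 and +2818 are filled almost only on the right, whereas nrv2 at +5108 and drpr at -18 and +1717 are filled in all 33 libraries.

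The regions on which the comparisons below turn are shown as 300 bases on the plus strand of dm6, read from the RefSeq genome sequence. For these regions the window was centred on the median, over libraries with a call, of the position of the highest summit. They are the start of repo, the pair of nrv2 regions whose calls separated LD from DD, the intronic Eaat1 region, and the drpr intron that was higher in clock neurons. Capitals mark CAATTA, the sequence bound by Repo, or its reverse complement TAATTG, which also contains the core shared by many homeodomain factors.
repo start, chr3R:18235922-18236221: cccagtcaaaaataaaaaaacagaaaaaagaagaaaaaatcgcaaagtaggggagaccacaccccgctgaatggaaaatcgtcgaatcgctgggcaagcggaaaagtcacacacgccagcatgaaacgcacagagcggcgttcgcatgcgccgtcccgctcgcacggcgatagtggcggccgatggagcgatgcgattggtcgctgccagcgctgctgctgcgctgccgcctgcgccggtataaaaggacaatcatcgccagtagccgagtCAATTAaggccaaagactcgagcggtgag
nrv2 region at the start of transcript RF, chr2L:6796816-6797115: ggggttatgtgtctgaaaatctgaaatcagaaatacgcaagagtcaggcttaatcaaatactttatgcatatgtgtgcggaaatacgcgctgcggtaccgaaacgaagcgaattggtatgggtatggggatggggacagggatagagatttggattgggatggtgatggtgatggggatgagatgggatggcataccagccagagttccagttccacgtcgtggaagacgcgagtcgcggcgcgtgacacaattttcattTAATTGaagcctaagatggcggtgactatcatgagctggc
nrv2 intronic region, chr2L:6795894-6796193: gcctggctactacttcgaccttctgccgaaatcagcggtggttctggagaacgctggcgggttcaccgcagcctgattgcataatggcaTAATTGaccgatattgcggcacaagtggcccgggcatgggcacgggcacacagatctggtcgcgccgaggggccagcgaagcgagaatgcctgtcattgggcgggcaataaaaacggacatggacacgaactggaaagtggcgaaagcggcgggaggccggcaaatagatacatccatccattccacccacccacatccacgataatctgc
Eaat1 intronic region, chr2L:9339012-9339311: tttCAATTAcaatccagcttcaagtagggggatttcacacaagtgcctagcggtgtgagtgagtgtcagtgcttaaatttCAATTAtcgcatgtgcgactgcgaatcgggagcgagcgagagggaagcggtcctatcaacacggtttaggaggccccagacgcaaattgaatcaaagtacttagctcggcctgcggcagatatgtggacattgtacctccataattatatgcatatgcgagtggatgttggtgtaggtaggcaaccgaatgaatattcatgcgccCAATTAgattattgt
drpr intronic region, chr3L:1729240-1729539: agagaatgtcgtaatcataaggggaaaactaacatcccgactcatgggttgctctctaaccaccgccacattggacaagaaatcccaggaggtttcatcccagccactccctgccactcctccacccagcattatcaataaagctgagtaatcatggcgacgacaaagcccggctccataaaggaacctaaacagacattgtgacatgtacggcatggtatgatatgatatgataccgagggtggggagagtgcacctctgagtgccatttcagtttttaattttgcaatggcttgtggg
The motif was present once in the repo window, from base 272, directly after the annotated start at base 271. It occurred once in each nrv2 window and at 3 places in the Eaat1 window, and these letters were not in the drpr window. Among the 25 regions of the glial genes, 9 windows held the motif, compared with 19.4% of the windows of all 36210 regions. The Gcm motif ATGCGGG, searched on both strands, was in 1 of the 25 windows, that of alrm, and in 2.57% of all windows. The median GC content was 48.7% in the 25 windows and 47.0% in all.

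repo (FBgn0011701, chr3R:18236192-18239602, plus strand) encodes the homeodomain factor that defines lateral glia, and its single region, chr3R:18235831-18236348, covered the start with a summit 120 bp upstream. In LD it was called in all 4 non-clock libraries, at 48.3, 27.4, 34.2 and 33.7 scaled tags, and in 1 of 8 clock neuron libraries, ZT12 replicate 3, at 31.4. In wild type DD the non-clock libraries held 48.6, 86.4 and 80.9, and in per01 89.0, 73.9, 84.4 and 52.6, while no clock neuron library in DD had a call. The LD groups overlapped, and 1 of the 4 LD non-clock values lay below the highest calling limit of clock neurons, 31.1. In DD all values of non-clock cells lay above the limits of the clock neurons, by at least 1.95-fold in wild type and 1.59-fold in per01. The log2 difference, non-clock minus clock, was 0.52 ± 0.17 (SE) in LD (limma, adjusted p = 0.0193), 1.58 ± 0.18 in DD (adjusted p = 4.2e-05) and 1.48 ± 0.17 in per01 (adjusted p = 2.8e-06). Without a clock neuron call in DD or per01, repo entered those tests only through the non-clock cells in which it was high. The LD call was lost with a stricter peak threshold and when dusk libraries alone represented clock neurons.

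ZT12 replicate 3, the clock neuron library with the repo call, also had calls at moody and at a weak Eaat1 intronic region. It was the clock neuron library with calls at the most glial markers, 6 of 10. It had calls at 10 of 14 further glial genes, where the other clock neuron libraries had 5 to 8. Over the whole genome it held 21572 called peaks, where clock neuron libraries held 16504 to 25335. Its repo call was at 31.4 scaled tags and its lowest called peak at 22.9. The share of all genes called in it was not computed. The part of glial chromatin in this library was not tested.

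Of the genes that clear and recycle transmitter, Eaat1 and Gs2 were called in both sorts with higher values in non-clock cells, and Gat was called in non-clock cells alone. Eaat1 (FBgn0026439, chr2L:9333567-9341925), the glial glutamate transporter, had a start region, chr2L:9333044-9333937, called in 32 of 33 libraries. In LD the clock neurons ranged from 35.4 to 54.5 scaled tags with a median of 46.9, and the non-clock cells held 78.7, 77.1, 83.7 and 121.0. In DD the clock neurons with a call (5 of 6) ranged from 29.0 to 45.2 with a median of 36.8, against 63.8, 94.3 and 109.5 in non-clock cells. These groups did not overlap in either regime. In per01 the clock neurons, at 42.8 to 76.1 with a median of 62.2, overlapped the non-clock cells, at 71.5, 72.6, 91.3 and 95.8. The start region was higher in non-clock cells by 0.91 ± 0.16 in LD (adjusted p = 1.5e-04), by 1.32 ± 0.22 in DD (adjusted p = 6.3e-04) and by 0.43 ± 0.16 in per01 (adjusted p = 0.0332) on the log2 scale. The per01 call was lost without per01 non-clock replicate 3 or 4. The difference between the genotypes in this contrast, -0.88 ± 0.26, did not pass the test (adjusted p = 0.170).

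A further Eaat1 region in an intron, chr2L:9338960-9339303, was called only in non-clock cells. Its values were 28.5, 24.4 and 20.9 in the 3 LD libraries with a call, 39.2, 51.5 and 38.3 in DD, and 46.3, 42.0, 52.5 and 40.8 in per01. All DD and per01 values exceeded every LD value. The contrast with clock neurons was 0.88 ± 0.13 in DD (adjusted p = 2.3e-04) and 0.79 ± 0.15 in per01 (adjusted p = 3.0e-04), and the region was not tested in LD, where too few libraries had a call. With the same number of peaks per library the differences were 0.25 in DD (adjusted p = 0.0436) and 0.29 in per01 (adjusted p = 0.0133). A weak region 911 bp upstream of the start was also called in non-clock cells alone, with differences of 0.32 in DD (adjusted p = 0.0504) and 0.29 in per01 (adjusted p = 0.0926) that were lost without some of the libraries and with a stricter peak threshold.

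Gs2 (FBgn0001145, chrX:11422832-11430197) encodes the glutamine synthetase with which glia convert glutamate into glutamine. Its tallest region was intronic, chrX:11427140-11427717. LD clock neurons held 77.6 to 107.7 scaled tags there with a median of 95.5, and LD non-clock cells 113.3, 128.4, 133.1 and 131.8. DD clock neurons held 63.1 to 84.3 with a median of 73.3, and DD non-clock cells 100.8, 97.7 and 113.8. In per01, 7 of 8 clock neuron libraries had a call, at 42.8 to 81.9 with a median of 61.3, and the non-clock cells held 118.7, 107.0, 138.4 and 126.5. The groups were separate in each comparison, with differences of 0.43 ± 0.10 in LD (adjusted p = 0.00155), 0.50 ± 0.12 in DD (adjusted p = 0.00607) and 1.12 ± 0.20 in per01 (adjusted p = 2.1e-04).

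The neighbouring Gs2 intronic region, chrX:11426148-11426527, was called in 12 of the 14 wild type clock neuron libraries and in none of the 8 per01 clock neuron libraries. Wild type clock neurons with a call held 37.4 to 63.7 in LD and 32.3 to 48.1 in DD, and the calling limits of the per01 clock neurons were 19.9 to 33.02. The per01 clock neurons include the shallowest libraries of the series, at 4.18 to 12.2 M tags. All non-clock libraries had a call, at 65.3 to 71.8 in LD, 57.3 to 73.9 in DD and 54.8 to 84.8 in per01. The region was higher in non-clock cells by 0.55 ± 0.21 in LD (adjusted p = 0.0406), 0.90 ± 0.21 in DD (adjusted p = 0.00398) and 1.38 ± 0.17 in per01 (adjusted p = 4.3e-06). The difference of the contrast between genotypes, 0.47 ± 0.27, did not pass the test (adjusted p = 0.575). Gs2 lies on the X chromosome, and the part of sex in its values was not tested. The Gs2 start region at chrX:11423537-11423995 was called in 8 non-clock libraries, at 19.2 to 28.8, and in no clock neuron library.

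Gat (FBgn0039915, chr4:629691-635350), the GABA transporter of astrocyte-like glia, had a single region at its start, chr4:629454-629782, called in non-clock cells alone. Its values were 25.8 and 28.9 in replicates 1 and 4 of LD, with no call in the other two libraries, 37.0, 48.5 and 39.9 in DD, and 47.2, 59.9, 52.5 and 51.8 in per01. The DD and per01 values all exceeded the LD values and the calling limits of the clock neurons. The differences were 0.84 ± 0.12 in DD (adjusted p = 2.2e-04) and 1.01 ± 0.15 in per01 (adjusted p = 3.4e-05), and the region was not tested in LD. With the same number of peaks taken from each library, they fell to 0.21 (adjusted p = 0.0560) and 0.51 (adjusted p = 2.8e-04).

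**Figure D2:**
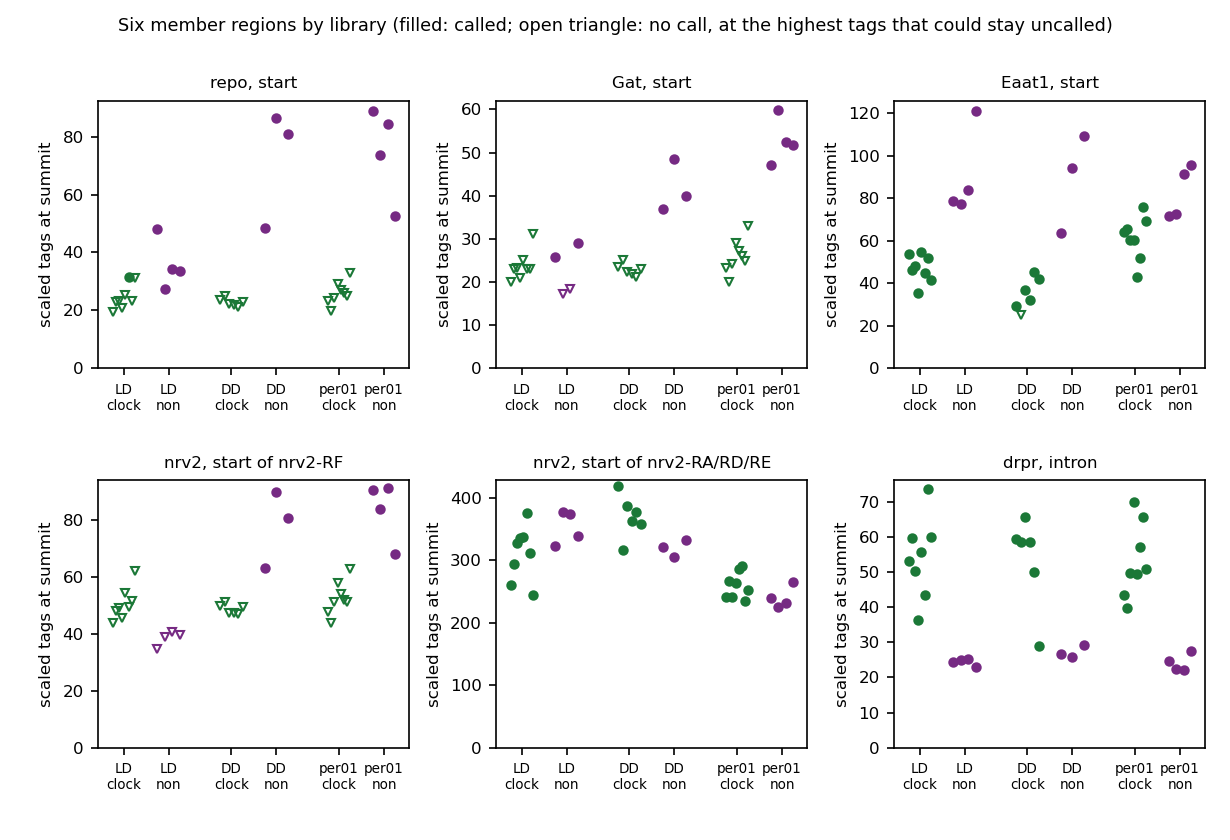
Scaled tags at the summit (linear axes) of 6 regions of glial marker genes in clock neurons (green) and non-clock cells (purple) of wild type LD, wild type DD and per01 DD. The panel named for the start of nrv2-RA/RD/RE shows the region that covers this start, with its summit 845 bp downstream. Filled points are libraries with a called peak. Open triangles are libraries without one, drawn at the highest scaled tags that could stay uncalled there. The repo, Gat and nrv2-RF starts are called in the DD and per01 non-clock cells and in no DD or per01 clock neurons, Eaat1 is called in 32 of 33 libraries, and the drpr intron runs the other way.

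Of both barrier markers, moody had low values and Mdr65 no call. moody (FBgn0025631, chrX:2044292-2050120, minus strand), a G protein-coupled receptor of the barrier-forming subperineurial glia, had a start region, chrX:2050058-2050549, which also lies within CG4313 on the opposite strand. In LD it was called in clock neurons at ZT0 replicates 2 and 3 (51.8 and 34.9 scaled tags) and ZT12 replicate 3 (44.7), and in 3 of 4 non-clock libraries at 19.4, 23.3 and 19.0. In DD only the non-clock libraries had calls, 24.04 and 29.1 in wild type and 33.7, 31.8, 35.0 and 36.9 in per01. The LD difference, -0.55 ± 0.23 (adjusted p = 0.0586), was toward clock neurons, and it was lost when all libraries shared a common floor (adjusted p = 0.351), with scaling by total tags (adjusted p = 0.124) and without LD non-clock replicate 1, 3 or 4. The per01 difference, 0.41 ± 0.14 (adjusted p = 0.0224), was toward non-clock cells, and it was lost with a stricter peak threshold and with dusk libraries alone. Another moody region, chrX:2048429-2048877, had its summit in an intron, 269 bp upstream of a further annotated start. It was called in 2 of 3 DD and 2 of 4 per01 non-clock libraries and in no clock neuron library. These calls were too few for a test between the cell kinds. Mdr65 (FBgn0004513, chr3L:6240500-6245746), the ABC exporter of the same cells, had no called peak in any of the 33 libraries, nor did its relatives Mdr49 and Mdr50.

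alrm (FBgn0039332, chr3R:25381065-25382781), a leucine-rich repeat protein used as a marker of astrocyte-like glia, had 1 call in the whole series, at 18.9 scaled tags in per01 non-clock replicate 1. wrapper (FBgn0025878, chr2R:22379637-22382675), an immunoglobulin-domain protein of glia that ensheath axons and cell bodies, had calls at its start in non-clock cells alone. Its values were 44.7 and 36.7 in DD replicates 2 and 3 and 71.0, 49.0, 78.3 and 44.0 in per01, with no call in LD. The local background at wrapper left up to 48.0 scaled tags uncalled in per01 clock neurons, and 3 of the 4 per01 non-clock values exceeded this. The per01 difference was 1.17 ± 0.18 (adjusted p = 4.4e-05), or 0.59 ± 0.17 (adjusted p = 0.00572) with missing calls set at the local limit. The higher wrapper level of per01 over wild type non-clock cells, 0.98 ± 0.32, did not pass the test (adjusted p = 0.150), whereas with the local limits it did, at 0.74 ± 0.20 (adjusted p = 0.0363).

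nrv2 (FBgn0015777, chr2L:6789770-6798862, minus strand) encodes a beta subunit of the sodium pump, and its regulatory DNA is widely used to drive expression in glia. It had 5 regions with contrasting patterns. The tallest, chr2L:6793650-6795194, covers the start shared by transcripts RA, RD and RE and was called in all 33 libraries. Its values are tags at a summit that lay in an intron, 845 bp downstream of that start. Clock neurons held 244 to 375 scaled tags there in LD, with a median of 320, 317 to 419 in DD, with a median of 370, and 235 to 291 in per01, with a median of 258. Non-clock cells held 323 to 378, 306 to 333 and 225 to 265, so that cell kinds overlapped in each comparison. A small difference toward clock neurons in DD, -0.21 ± 0.08 (adjusted p = 0.0501), was lost without DD non-clock replicate 1 or 2, with scaling by total tags and with dusk libraries alone. The LD difference of 0.19 ± 0.10 (adjusted p = 0.111) and the per01 difference of -0.11 ± 0.07 (adjusted p = 0.247) did not pass.

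In non-clock cells this tall nrv2 region was lower in per01 than in wild type DD, by -0.41 ± 0.07 (adjusted p = 0.00845), with separate groups and the same call in all 9 alternatives. The clock neurons of per01, at 235 to 291, also lay below those of wild type DD, at 317 to 419, which was not tested. It was the only 1 of 20 tested regions of the glial genes that differed between genotypes in non-clock cells, and it was lower in per01. Of all 22875 regions tested, 2.53% were higher in per01 and 2.43% in wild type.

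A pair of nrv2 regions was called only in non-clock cells in DD. The region at the start of transcript RF, chr2L:6796696-6797146, with its summit 183 bp upstream of that start, held 63.1, 90.1 and 80.9 scaled tags in DD non-clock cells and 90.8, 84.1, 91.3 and 68.3 in per01 non-clock cells. The intronic region chr2L:6795912-6796324 held 62.4, 92.0 and 85.8 in DD and 90.8, 79.6, 101.2 and 61.3 in per01. Neither had a call in any of the other 26 libraries, the 4 LD non-clock libraries included. Of all 36210 regions, 51 (0.141%) were called in all 7 DD non-clock libraries and in no other. The 2 remaining nrv2 regions, at +1248 and +3505 bp from the first start, were each called in 22 libraries of both cell kinds and passed no test between them.

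The RF start was higher in non-clock cells by 1.72 ± 0.15 in DD (adjusted p = 6.5e-06) and 1.66 ± 0.16 in per01 (adjusted p = 3.8e-07), and the intronic region by 1.75 ± 0.15 (adjusted p = 7.3e-06) and 1.64 ± 0.17 (adjusted p = 8.4e-07). These sizes depended on the value given to uncalled libraries. Given the local background in the libraries with a call, clock neurons could hold up to 51.4 scaled tags in DD and 63.0 in per01 without a call. At those limits the differences were 0.66 ± 0.13 and 0.66 ± 0.14 for the RF start, and 0.68 ± 0.13 and 0.63 ± 0.15 for the intronic region, all still past the threshold. In per01, 1 of the 4 values of the intronic region lay below the highest limit.

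**Figure D3:**
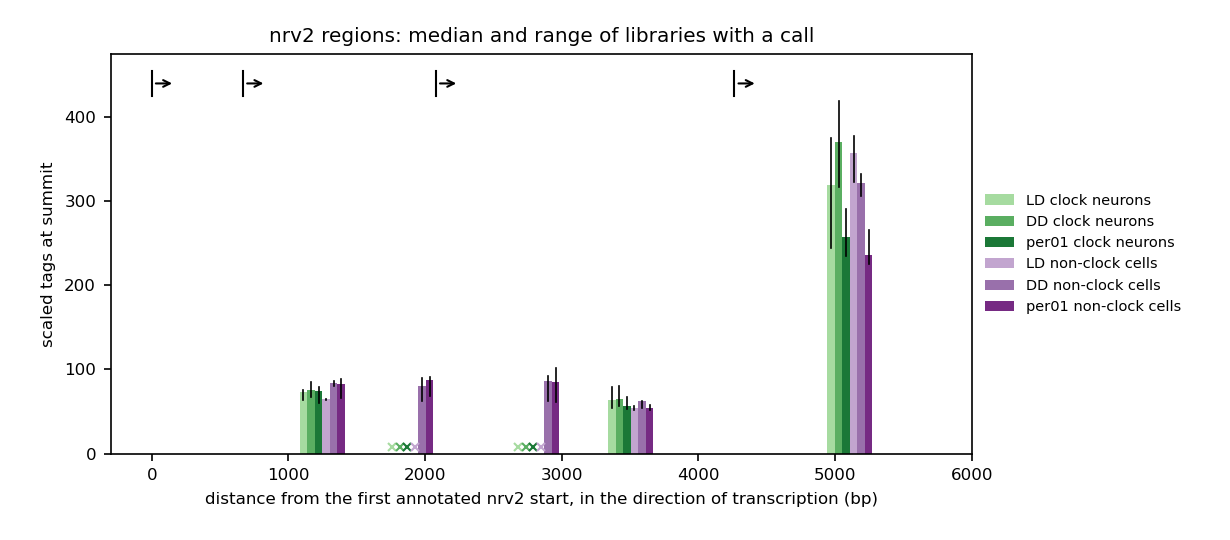
Median scaled tags (bars) and range (lines) over libraries with a call at the 5 nrv2 regions, against the distance from the first annotated start in the direction of transcription (bp), for clock neurons (greens) and non-clock cells (purples). Arrows mark annotated starts and crosses mark groups without a call. The regions at +1896 and +2818 are present only in DD and per01 non-clock cells, whereas the region at +5108 is tallest in every group.

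drpr (FBgn0027594, chr3L:1715595-1731107, minus strand), encodes Draper, the engulfment receptor of phagocytic glia, and 1 of its regions was higher in clock neurons in all 3 comparisons. An intronic region 1717 bp from its start, chr3L:1729066-1729577, was called in all 33 libraries. LD clock neurons held 36.4 to 73.6 scaled tags with a median of 54.5, against 24.5, 24.9, 25.3 and 23.0 in non-clock cells. DD clock neurons held 28.9 to 65.7 with a median of 58.7, against 26.8, 25.9 and 29.1. The per01 clock neurons held 39.8 to 70.1 with a median of 50.4, against 24.7, 22.3, 22.1 and 27.5. The groups were separate in LD and per01, and in DD a single clock neuron library, CT36 replicate 3, fell within the range of non-clock cells. The differences were -1.09 ± 0.18 (adjusted p = 9.0e-05), -0.90 ± 0.23 (adjusted p = 0.00796) and -1.10 ± 0.17 (adjusted p = 6.4e-05), and they passed in each alternative tried, the common floor included.

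The start of drpr, chr3L:1730821-1731289, which is shared with the divergent gene Oseg4, did not follow this intron. It was called in all libraries, at 83.4 to 130.7 scaled tags in clock neurons and 87.8 to 118.7 in non-clock cells. Its differences of -0.14 ± 0.09, 0.03 ± 0.10 and 0.03 ± 0.13 in LD, DD and per01 did not pass the test (adjusted p = 0.212, 0.856 and 0.858). A region 778 bp into the gene did not pass either, with differences of -0.01, 0.33 and 0.14.

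Counted over regions, 12 of the 25 were tested in LD, 16 in DD and 18 in per01, the others having too few calls. In LD, 5 were higher in non-clock cells and 2 in clock neurons, where 21.1% and 34.2% of all 23186 tested regions were. In DD, 9 and 2 were, compared with 24.3% and 27.8% of all regions. In per01, 11 and 1 were, compared with 21.4% and 26.3%. None of the 5 LD regions, 6 of the 9 DD regions and 9 of the 11 per01 regions had no clock neuron call in that comparison and so had entered the test only through the cells in which they were high. Among them were repo, Gat, the Eaat1 intronic region and the nrv2 pair in DD and per01, and wrapper in per01. Over all regions higher in non-clock cells, 14.2%, 28.9% and 23.5% were of this kind. Of all tested regions without a clock neuron call, 70.4%, 65.1% and 67.7% were higher in non-clock cells in LD, DD and per01. The median difference of the tested regions was 0.09 in LD, 0.60 in DD and 0.43 in per01, beside -0.04, 0.03 and 0.03 over all regions.

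Scaling by total tags shifted the median of all LD regions by 0.12 and changed the LD counts of glial regions to 6 and 1, and those of all regions from 4884 and 7930 to 7163 and 6925. In per01 it changed 4568 and 5629 of all regions to 3325 and 6297, with 10 and 1 glial regions. With a common floor the glial counts were 4 and 1 in LD, 9 and 2 in DD and 10 and 1 in per01. The plot of log2 differences shows every tested region.

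**Figure D4:**
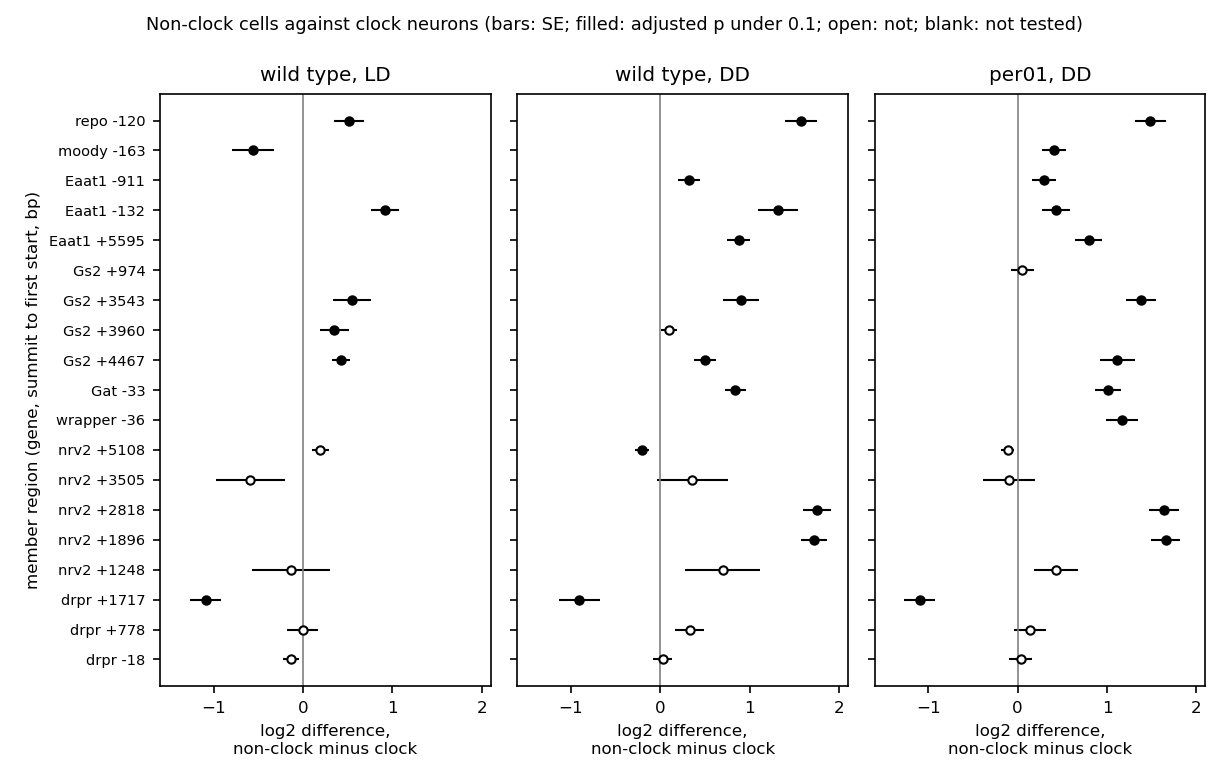
Log2 difference of scaled tags, non-clock cells minus clock neurons, with its SE (bars) for each tested region of the glial marker genes in wild type LD, wild type DD and per01 DD. Filled points passed the test (limma, adjusted p under 0.1) and open points did not. Most regions lie right of zero, drpr at +1717 lies left of zero in all 3 panels, and repo lies at 0.52 in LD against 1.58 in DD.

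With 1 value per gene, the highest called summit, 3 of 6 tested glial markers in LD (Eaat1, repo and Gs2), 4 of 6 in DD (those and Gat) and 6 of 8 in per01 (those, moody and wrapper) were higher in non-clock cells. Over all tested genes 17.2%, 26.0% and 16.4% were. None in LD, nrv2 in DD and none in per01 were higher in clock neurons, where 14.4%, 13.7% and 10.4% of all genes were. In DD repo and Gat, and in per01 repo, Gat, moody and wrapper, had no clock neuron call. They entered these gene tests only through the non-clock cells in which they were high. The share of such genes among all tested genes was not counted. The LD call of repo was lost without LD non-clock replicate 1, with the common floor, with the stricter threshold and with dusk libraries alone. In per01 that of moody (0.41, adjusted p = 0.04998) was lost in 7 of 24 alternatives, among them the common floor and scaling by total tags, and that of Eaat1 (0.43, adjusted p = 0.0504) in 4 of 25, without per01 non-clock replicate 3 or 4 among them. Scaling by total tags left 4 genes higher in per01 non-clock cells, and it changed the counts over all genes from 1546 and 986 to 781 and 1152. For nrv2 the tallest region decides this value, and with the sum over all its summits the DD difference turned from -0.21 to 0.36 (adjusted p = 0.0473) and the per01 difference from -0.11 to 0.36 (adjusted p = 0.00293). With total tag scaling nrv2 in DD was no longer called, which left 4 and 0 genes.

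The contrast between cell kinds differed between LD and DD at 5 of 19 tested regions, all toward non-clock cells in DD, where 2.49% of all 28098 regions were, and at none toward clock neurons, where 1.26% were. The difference of the contrast was 2.1999 ± 0.19 for the nrv2 RF start and 2.23 ± 0.19 for the nrv2 intronic region (adjusted p = 1.2e-07 for both), or 1.03 ± 0.18 and 1.05 ± 0.19 at the local limits (adjusted p = 0.00364 for both). It was 1.06 ± 0.26 for repo (adjusted p = 0.0303), 0.94 ± 0.21 for Gat (adjusted p = 0.0205) and 0.94 ± 0.20 for the Eaat1 intronic region (adjusted p = 0.0157). Neither nrv2 region had a call in any LD library, so their LD contrasts rested wholly on the values given to uncalled libraries. Gat and the Eaat1 intronic region had LD calls only in 2 and 3 non-clock libraries. Without DD non-clock replicate 2 the count was 3, and the calls at repo and Gat were lost.

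The same regions separated the non-clock cells of LD and DD. In this comparison 6 of 18 tested regions were higher in DD, where 6.96% of all regions were, and 1 in LD, where 8.82% were. Both nrv2 regions were higher in DD, by 2.16 ± 0.17 (adjusted p = 1.2e-04) at the RF start and 2.195 ± 0.18 (adjusted p = 1.3e-04) in the intron, and at the local limits by 0.99 ± 0.15 and 1.01 ± 0.15. Neither had a call in LD, so both entered this test, and that of the contrast between regimes, only through the DD cells in which they were high. The lowest DD values there, 63.1 and 62.4, exceeded the highest LD limits of 40.6 and 41.2. Eaat1 in its intron was higher by 0.90 ± 0.20 (adjusted p = 0.0220), repo by 0.97 ± 0.23 and Gat by 0.90 ± 0.22 (adjusted p = 0.0282 for both), and these 3 calls were lost without DD non-clock replicate 2, which left 2 regions in all. The nrv2 region at +1248 bp (1.30 ± 0.45, adjusted p = 0.0978) and the tallest Gs2 region, higher in LD (-0.28 ± 0.09, adjusted p = 0.0778), were lost without several of the libraries.

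Other glial genes were called more often in non-clock cells in DD than in LD, which was not tested. Of 14 further glial genes, 8 to 12 were called per library in LD, 12 to 14 in DD and 11 to 13 in per01, and their summed scaled tags were 681 to 776, 856 to 928 and 935 to 1012. Over the whole genome these non-clock libraries held 20930 to 24876 called peaks in LD, 23437 to 25793 in DD and 22082 to 24697 in per01. The sums of the 10 glial markers overlapped between regimes, at 704 to 749, 676 to 835 and 717 to 831. The sums of 10 neuronal genes were 4053 to 5096, 3681 to 4204 and 3805 to 4290 in the same libraries. The part of the number of glia in the sort, of collection time and of library preparation in the difference between regimes was not tested. The regime and the round of collection cannot be told apart.

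No difference between the genotypes in the contrast of cell kinds passed the test at the glial genes. Of 20 regions tested by limma, 0 passed (4 had an unadjusted p under 0.05), and 0.927% of all 27075 regions did. The contrast of repo was 1.58 in wild type DD and 1.48 in per01, with a difference of -0.09 ± 0.26 (adjusted p = 0.940). That of the nrv2 RF start differed by -0.06 ± 0.22 (adjusted p = 0.957).

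No region of the glial markers passed the test between dawn and dusk in clock neurons. By limma, 0 of 8 tested regions passed in LD, 0 of 9 in DD and 0 of 8 in per01, with 0, 2 and 1 at an unadjusted p under 0.05, where 0.0872%, 0.679% and 0.0% of all regions passed. The Eaat1 start was lower at ZT12 (35.4 to 46.0 scaled tags) than at ZT0 (47.9 to 54.5) in every LD library, but its difference of -0.31 ± 0.20 did not pass (adjusted p = 0.920).

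The other genes of the glial programme were less uniform. Of 14 further glial genes, 3 of 10 tested were higher in non-clock cells in LD, 4 of 13 in DD and 6 of 11 in per01, with 2, 2 and 1 higher in clock neurons. Of all tested genes 17.2%, 26.0% and 16.4% were higher in non-clock cells and 14.4%, 13.7% and 10.4% in clock neurons, which is the background for each list here. Tret1-1, a trehalose transporter of barrier glia, was higher in non-clock cells by 0.38, 0.61 and 0.47 in LD, DD and per01, and axo, a neurexin-family protein of glia, by 0.47, 0.29 and 0.41. gcm, the switch gene of glial fate, was higher in clock neurons by 1.08, 1.00 and 0.92, with clock neurons at 30.7 to 84.6 scaled tags and non-clock cells at 16.9 to 27.5 where called. Of 10 partners of Draper in engulfment, 9 were tested, and 2, 5 and 2 were higher in non-clock cells and 1, 0 and 1 in clock neurons. Of 10 septate junction and Moody signalling genes, 3, 5 and 1 were higher in non-clock cells and none in clock neurons.

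Of 7 further genes of glutamate and GABA handling, all tested, 3 were higher in clock neurons in each comparison, VGlut (vesicular glutamate transporter), Gad1 (GABA synthesis) and Eaat2 (a further acidic amino acid transporter), and 0, 1 and 1 were higher in non-clock cells. The nrv2 relative nrv1, among 3 further sodium pump subunits, was higher in clock neurons in all comparisons.

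Markers of other cells served to check the sorts. Of 6 clock neuron genes, 5, 4 and 4 were higher in clock neurons, led by Clk, at 198 to 341 scaled tags against 32.0 to 67.7, and none in non-clock cells. Of 10 neuronal genes, 2, 0 and 1 were higher in non-clock cells and 0, 4 and 0 in clock neurons. Among hemocyte genes, srp, the GATA factor of blood cells and fat body, was called in all 22 clock neuron libraries, at 32.9 to 103.3, and in no non-clock library, whereas He was never called. Of 6 hemocyte genes, 2, 2 and 2 were higher in clock neurons (srp and Pxn, an extracellular matrix peroxidase) and 0, 1 and 1 in non-clock cells. Of 4 fat body genes only apolpp, a lipoprotein precursor, had calls, and it was higher in non-clock cells by 0.28, 0.22 and 0.40. The muscle genes Mhc, wupA and Act88F had no call, and the remaining one, up, had calls in LD clock neurons alone, at up to 39.6. Of 5 photoreceptor genes, ninaE, Rh3 and chp had no call, and Rh4 and trp, with 1 to 2 called per library, passed no test between the cell kinds.

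The genes most like repo were sought among 9451 genes called in at least 11 libraries, by the Pearson correlation of log2 values over the 33 libraries, which share the depth and the calling limit described above. The 5 closest were Tsp42Ea and CG30159 (r = 0.978 for both, overlapping genes on chromosome 2R that share a peak), lncRNA:CR45150 (r = 0.972), CG4409 (r = 0.967) and Mrp4 (r = 0.965). Each was called in all 11 non-clock libraries and in 0 to 2 of the 22 clock neuron libraries. Genes uncalled in the same libraries were given the same values there, which by itself raises r, so shared regulation was not tested. Among the glial markers Eaat1 reached r = 0.632, Gs2 0.491 and moody 0.298, whereas drpr was at 0.055 and nrv2 at -0.300. Gat, wrapper, alrm and Mdr65 had too few calls to be ranked.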

How the data were processed

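The ATAC-seq peak lists of all 33 libraries of sorted fly brain cells were used. Per the labels and methods, the authors trimmed reads with cutadapt 4.1, aligned them to dm6 with Bowtie2 2.4.5, removed duplicates with Picard 2.27.4 and SAMtools 1.15.1 and called peaks per library with MACS2 2.2.7.1. The deposited columns hold a score, the fold enrichment of the summit over local background (a ratio) and its −log10 p-value and q-value. Whole tags at each summit were recovered from the deposited fold and −log10 p columns, within 0.02 of a whole number. The tool roles follow the usual use of each program and the versions the submitters' processing notes.

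Peaks overlapping by 1 bp were merged into 36210 regions and assigned to genes of Ensembl 115 (BDGP6.54, the same assembly as dm6). Tags were scaled by the median of ratios over the 9040 regions called in all libraries. limma 3.58.1 with a trend (R 4.3.3) tested log2(scaled tags + 1) over all regions or genes, provided that the number of libraries with a call reached the size of the smaller group, with Benjamini-Hochberg adjustment and a threshold of 0.1. The added 1 shrinks the fold changes of low regions, whereas the value given to missing calls can make them too large or too small. Missing calls were set to the lowest called peak of the same library. Replicates are separate libraries of a group. Only the groups compared entered each fit, with clock neurons of both times as 1 group. Python 3.11.15 and matplotlib 3.10.9 were used for the rest.

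On simulated data a 2-fold change was found at 85%, 84% and 90% of changed regions in the LD, DD and per01 comparisons and a 1.5-fold change at 36%, 41% and 39%, over 23184, 23552 and 21385 regions. In these simulated data 158, 150 and 144 regions were called in all. Of them, 23, 20 and 8 were unchanged regions called toward clock neurons and 14, 5 and 7 unchanged regions called toward non-clock cells. Taken over both directions, the share of unchanged regions among the calls lay above the adjusted p threshold of the tests in LD and DD. In per01 it lay close to that threshold. Intervals for single counts were not computed. Total tags per library were 4.18 to 36.2 M.

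The glial markers and the gene lists were chosen with earlier results of these data known, and no list is independent evidence. Named regions were, for each marker, the one at its start, the tallest one and the one with the largest LD difference. The intronic moody region was named outside this rule, after its values were seen. Other lists contributed counts and at most 3 genes that passed in all 3 comparisons with 1 sign. Genes named beyond this rule (nrv2 and Eaat1 introns, the second Gs2 intron region, up, Rh4 and trp as the remaining genes of their lists, and the uncalled genes of the marker lists) were chosen after their values were seen. The alternatives were another scaling, another pseudocount, filter, peak threshold and fill of missing calls, equal peak numbers, a replicate block, 1 fit over all libraries, each time alone, each library left out, and a common floor added after seeing the data. No sequence from chromosome arm 2R is shown.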

Additional observations from a re-analysis of the deposited data

Results flagged for a closer look

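In the Eaat1 start region, LD non-clock replicate 4 held 121.0 scaled tags and the next highest library of its group 83.7, a gap of 0.851 of the range of the group. Of 41 groups of 4 to 10 libraries tested in this way, 1 stood out, where chance would give about 5%. Without this library the region remained called in LD.

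The contrast of non-clock cells with clock neurons differed between DD and LD at 5 regions by the interaction test of limma. The difference of the contrasts on the log2 scale was 1.06 for repo, 0.94 for the Eaat1 intronic region, 0.94 for Gat, 2.23 for the nrv2 intronic region and 2.1999 for the start of nrv2 transcript RF. Neither nrv2 region had a call in LD, and at the local limits their values were 1.05 and 1.03.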

How the results depend on the processing

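Of 3011 single values of glial genes recomputed under the alternatives, 2883 kept their direction and their side of the threshold, 81 lost it, 42 gained it and 5 reversed. Called in every alternative were 4 of 7 regions in LD, 9 of 11 in DD, 9 of 12 in per01, 2 of 7 between non-clock cells of LD and DD, 1 of 1 between genotypes and 3 of 5 for the difference between regimes. The count of LD regions was 4 instead of 7 with the same number of peaks per library. Between genotypes the count in non-clock cells was 3 instead of 1 at the local limits, and that of the contrast was 1 instead of 0 with scaling by total tags. At gene level LD gave 5 instead of 3 with 1 fit over all libraries, and DD gave 3 instead of 5 with 500 bp around starts. The reversed values were -0.17 for the Gs2 region at +3960 bp in DD and -0.0323 for the upstream Eaat1 region in per01, both with the stricter peak threshold, and, for the nrv2 gene value, 0.36 in DD and 0.36 in per01 with the sum over summits and 0.49 in DD with 500 bp around starts. The cause of these changes was not tested.

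With a library left out, the counts ranged from 5 to 8 in LD, 9 to 12 in DD and 10 to 12 in per01 for regions, and from 2 to 4, 4 to 5 and 4 to 6 for genes. Between dawn and dusk they were 0 to 0 in LD, 0 to 1 in DD (1 without CT24 replicate 2) and 0 to 0 in per01. For non-clock cells of LD and DD they were 2 to 10, for the genotypes 1 to 2 (2 without DD non-clock replicate 3), for the contrast between regimes 3 to 7 and for that between genotypes 0 to 1 (1 without DD non-clock replicate 1 or per01 CT24 replicate 3). The 2 and the 3 both came without DD non-clock replicate 2, which also moved the counts over all regions from 3633 to 923 and from 1052 to 320.

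Same-numbered libraries correlated at -0.10 to 0.49 in LD, -0.01 to 0.28 in DD and -0.05 to 0.32 in per01. Differently numbered ones correlated at -0.52 to 0.22, -0.31 to 0.18 and -0.30 to 0.24, so the same-numbered ranges lay higher. The main fits did not take the numbers as pairs, and whether they mark shared rounds was not tested. With a replicate block, 8, 11 and 12 regions and 5, 5 and 6 genes were called in LD, DD and per01, and none between dawn and dusk, where it moved the count over all DD regions from 124 to 25 and over all LD regions from 17 to 57.

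Over all regions the call counts rose to 19660, 17240 and 15826 from 12814, 12289 and 10197 without the filter on low values. In LD the called values of non-clock cells were 27.4 to 48.3 at repo, 25.8 and 28.9 at Gat and 19.0 to 23.3 at moody, beside lowest called values of 19.2 to 31.1 in the clock neurons without a call there.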
